A study of Mus musculus with 3 samples.

Results

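Heat shock genes encode the chaperones that hold, fold and refold other proteins, and 10 of them are described here: Hspa1a, Hspa1b, Dnajb1, Hsph1, Hspb1 and Hsp90aa1, the heat-inducible cytosolic members, Hspa8 and Hsp90ab1, the constitutive cytosolic members, and Hspe1 and Hspd1, the mitochondrial members. They were taken by name from the deposited gene lists, where all 10 are among the 32285 genes, each once. The cells were CD45+ leukocytes, sorted as live nucleated cells from whole mouse aortas, adventitia included, after enzyme digestion of the minced vessel. All 3 libraries come from mice labelled ApoE-/- on C57BL/6J, the hyperlipidaemic strain used as a model of atherosclerosis: a control (Ctrl), one given drinking water with homocysteine at 1.8 g/L for 4 weeks (HHcy), and one fed western diet for 4 weeks (WD). The number of mice behind a library, their age and their sex are not given in the sources used here. With 1 library per group there is no replicate error, so library and treatment cannot be told apart. No p-value is given, and each 95% interval covers counting error only. Triplets of values below are always in the order control, labelled HHcy and western diet.

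Apoe, the gene deleted in this strain, stood at 16.3, 374 and 19.3 UMIs (unique molecular identifiers, counted as molecules) per 1000000. One library thus goes against its label, and it is called the library labelled HHcy throughout. The libraries held 7512, 9753 and 8557 barcodes with 66789257, 105180370 and 93164076 UMIs in all, and any 2 libraries shared 20 to 24 barcode sequences. After filtering, 5454, 6521 and 5419 cells remained. 584, 1634 and 1291 other barcodes carried markers of several lineages and were set aside as multiplets, 9.67%, 20.04% and 19.2% of those that passed the filters. Classes were built by clustering without the heat shock genes and named "-like" from marker genes. The 5 classes compared between libraries were B-like cells (2350, 3874 and 1320), T-like cells (79, 133 and 80), macrophage/monocyte-like cells (2015, 1265 and 2749), conventional dendritic-like cells (437, 273 and 385) and neutrophil-like cells (184, 408 and 264). Every defining marker of these classes had some UMIs in its class in each library. That alone does not set the classes apart, since all 10 T and all 16 macrophage/monocyte markers had some in B-like cells too. Another 223, 204 and 281 cells fell in clusters left unnamed by the marker rules. One of these, of 56, 54 and 52 cells led by Ccl5, Nkg7, Gzmb and Cd8b1, scored highest for T. All 10 T markers were each detected in at least 25% of its cells, but more of its leading genes were NK markers. The T-like class leaves it out. The neutrophil-like class joined a cluster led by Cstdc4, Stfa2l1 and Retnlg (102, 335 and 218 cells) and one led by Camp, Ngp and Ltf (82, 73 and 46). The neutrophil-like ratios therefore set unlike mixes of these clusters side by side.

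The cytosolic system turns on HSP70, which grips exposed hydrophobic stretches of unfolded proteins in cycles driven by ATP. DNAJ proteins such as Dnajb1 deliver the client and start ATP hydrolysis, Hsph1 (HSP110) exchanges the nucleotide, and HSP90 takes over clients that mature late, kinases and hormone receptors among them. Hspb1 (HSP27) is a small heat shock protein that holds clients without ATP. Cells keep Hspa8 and Hsp90ab1 present at all times, while heat, oxidative stress and tissue dissociation switch on Hspa1a and Hspa1b within minutes through heat shock factor 1. Hspd1 (HSP60) and its lid Hspe1 (HSP10) form the folding chamber of the mitochondrial matrix.

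Heat shock factor 1 binds heat shock elements, inverted repeats of the unit GAA. The sequences upstream of 4 inducible or mitochondrial members are shown because they carry such repeats. They come from RefSeq (GRCm38.p6), read 5′ to 3′ on the gene's strand, and capitals mark matches to GAANNTTC or TTCNNGAA, which read the same on both strands and may overlap. Hspa1a (chr17:34969359-34972156, minus strand) and Hspa1b (chr17:34956429-34959238, minus strand) are shown with the 250 bases before the start, at chr17:34972157-34972406 and chr17:34959239-34959488. Hspb1 (chr5:135887919-135889563, plus strand) is shown at chr5:135887669-135887918. For Hspe1 (chr1:55088148-55091317, plus strand) the 30 bases at chr1:55088053-55088082, which lie in an annotated exon of its neighbour Hspd1, are printed.
Hspa1a: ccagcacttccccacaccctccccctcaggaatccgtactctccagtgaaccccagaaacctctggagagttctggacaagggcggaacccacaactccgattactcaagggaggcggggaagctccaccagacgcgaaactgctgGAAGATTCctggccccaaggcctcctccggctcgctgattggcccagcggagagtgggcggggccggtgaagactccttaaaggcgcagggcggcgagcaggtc
Hspa1b: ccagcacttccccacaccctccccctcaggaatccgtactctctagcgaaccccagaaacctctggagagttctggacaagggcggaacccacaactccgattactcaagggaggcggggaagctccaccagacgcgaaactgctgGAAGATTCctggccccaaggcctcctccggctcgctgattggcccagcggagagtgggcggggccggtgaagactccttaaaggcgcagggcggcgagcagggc
Hspb1: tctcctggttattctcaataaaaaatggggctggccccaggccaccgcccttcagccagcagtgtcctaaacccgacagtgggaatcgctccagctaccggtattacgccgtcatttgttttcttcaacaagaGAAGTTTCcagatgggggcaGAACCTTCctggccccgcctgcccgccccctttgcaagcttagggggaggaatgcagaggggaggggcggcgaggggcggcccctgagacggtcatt
Hspe1: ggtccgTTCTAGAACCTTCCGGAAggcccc

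The Hspa1a and Hspa1b stretches are identical at 247 of 250 bases (98.8%), and each holds 1 match, 104 bases before the start. Hspb1 has 2 matches, 117 and 97 bases before its start, and Hspe1 has 3 overlapping ones, 89, 84 and 79 bases before. Hspd1 (chr1:55077833-55088243), which is transcribed away from Hspe1, has 2 windows. The second shares 285 of 300 bases with that of Hspe1 and so holds the same 3 matches, and the first shares 4 bases and holds none. Hsph1 has a match 33 bases before the first of its starts and overlapping ones 36 and 41 bases after it, which form the longer repeat counted below. Dnajb1 has none in its windows. Of the members, 7 had a promoter window of 250 bases before to 50 after the start in the RefSeq table, 6 of these hold such a match and 3 hold the longer GAANNTTCNNGAA or TTCNNGAANNTTC. Over all 32851 windows, 15.1% hold the shorter match, 1.96% hold 2 or more, and 0.603% hold the longer one. Counted by gene, as the members are, 17.0% of 27025 genes hold the shorter match and 0.662% the longer one. Hspa8, Hsp90aa1 and Hsp90ab1 had no window. A match is a string of letters, not a measured binding site.

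Hspa1a and Hspa1b code for nearly the same protein, so reads could in principle be shared between them. Their transcripts of 2967 and 2803 bases share 1716 stretches of 50 bases, 58.8% and 62.3% of each. Their last 500 bases share 0 of 451 such stretches. The assay reads transcripts near the 3′ end, where the pair therefore differs in sequence, but reads that reach the shared part cannot be placed in one gene. How the authors' counting treated such reads is not given in the sources used here, so the sum of the pair is reported beside each gene.

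The inducible HSP70 pair was high in macrophage/monocyte-like and conventional dendritic-like cells and low in B-like and neutrophil-like cells. Levels are given as CPM, the UMIs of a gene per 1000000 UMIs of all cells of that class in that library. Since 1 UMI stands for 1 transcript end, CPM is not scaled by gene length. Hspa1a and Hspa1b together stood at 914, 642 and 786 CPM in macrophage/monocyte-like cells and 982, 557 and 642 in conventional dendritic-like cells. The pair was near 756, 183 and 206 CPM in T-like cells, 111, 46.9 and 121 in neutrophil-like cells and 91.1, 47.6 and 75.6 in B-like cells. B-like or neutrophil-like cells were thus lowest in each library, and the highest of the 5 classes exceeded the lowest 10.8, 13.7 and 10.4 times. The same ratio was 6.89, 7.74 and 8.48 for the constitutive Hsp90ab1 and 15.8, 15.8 and 14.4 for the mitochondrial Hspd1. Among the small classes, ILC2-like cells (29, 48 and 54 cells) had 1530.0, 255 and 203 CPM, mast-like cells (34, 24 and 11) 950.2, 103 and 411 and fibroblast-like cells (30, 88 and 172) 1122, 625 and 996. ILC2-like cells were thus highest of all classes in the control library.

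**Figure D1:**
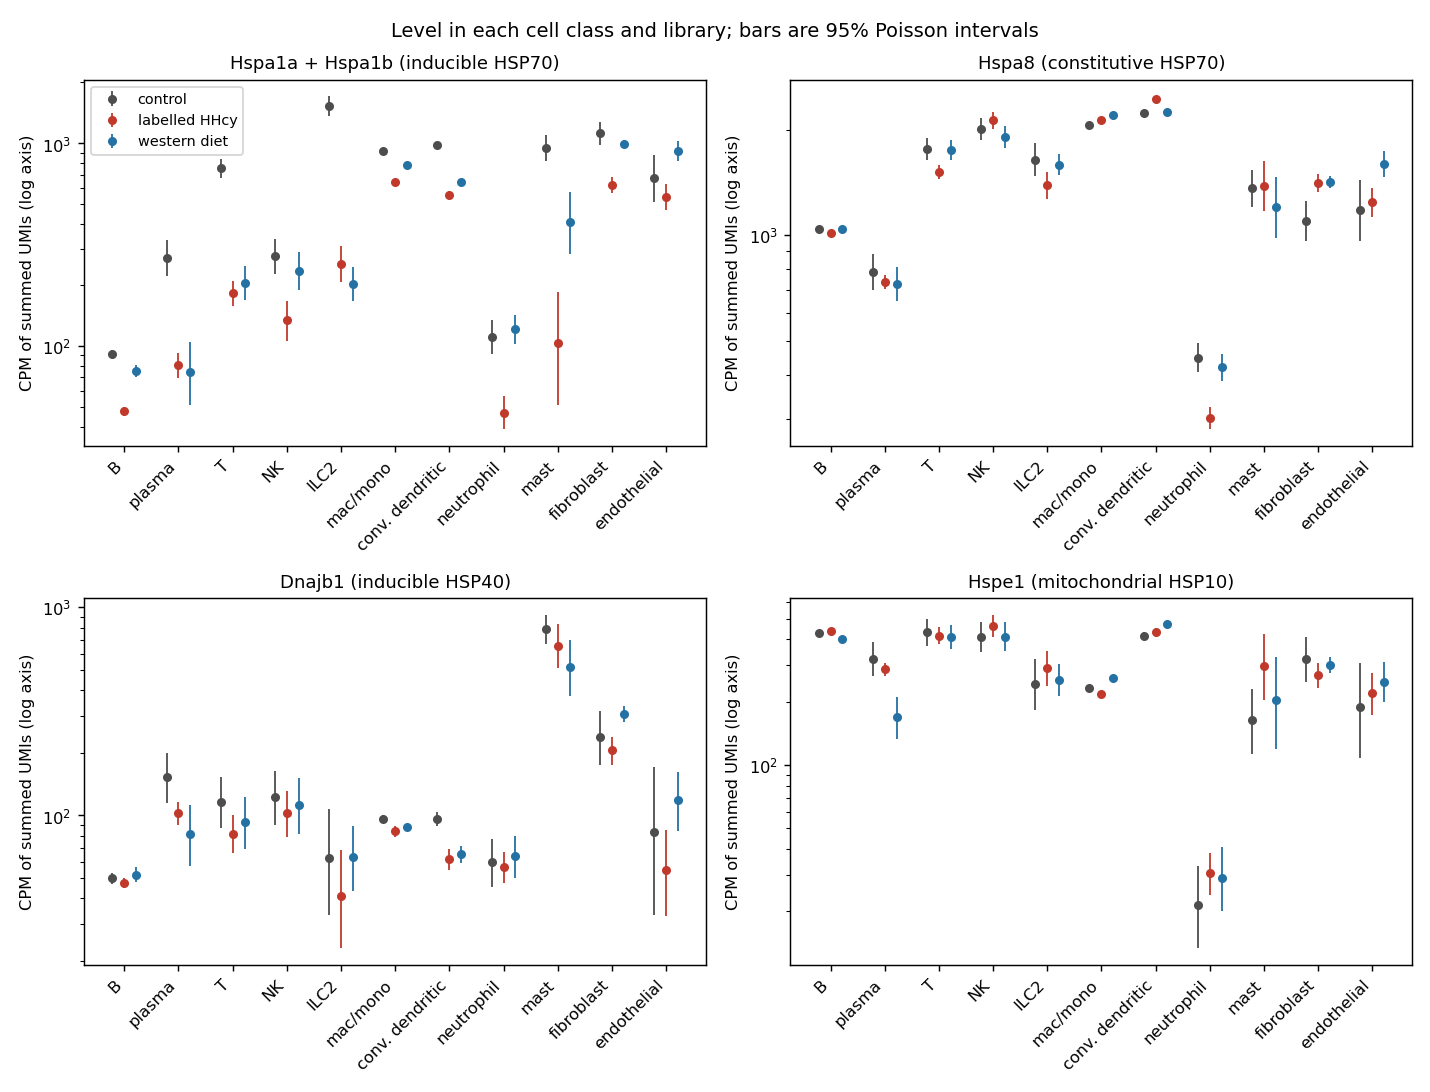
Levels of Hspa1a and Hspa1b together, Hspa8, Dnajb1 and Hspe1 in 11 cell classes (horizontal axis), in CPM on a log axis, 1 point per library with its 95% Poisson interval. The Hspa1 pair lies between 46.9 and 982 CPM in the 5 main classes, and Dnajb1 is highest in mast-like cells of every library.

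Taken gene by gene, of the 5 main classes macrophage/monocyte-like cells had most Hspa1a, at 510.3 (500.05 to 521), 429 (418 to 440.3) and 496 (488 to 504) CPM. It was 488, 341 and 369 CPM in conventional dendritic-like, 244, 95.4 and 85.3 in T-like, 54.5, 30.1 and 81.8 in neutrophil-like and 45.1, 28.5 and 41.4 in B-like cells. That order held in all 3 libraries, although the intervals of macrophage/monocyte-like and conventional dendritic-like cells overlapped in the control library, those of neutrophil-like and B-like cells in the control library and the library labelled HHcy, and those of T-like and neutrophil-like cells in the western diet library. Hspa1b was 512 (447 to 583), 87.2 (70.6 to 107) and 121 (93.0 to 154) CPM in T-like, 494, 216 and 272 in conventional dendritic-like and 404, 214 and 289.6 in macrophage/monocyte-like cells. It was 56.5, 16.9 and 39.2 CPM in neutrophil-like and 46.0, 19.1 and 34.2 in B-like cells. Among these 5 its leading class thus changed with the library, from T-like to conventional dendritic-like to macrophage/monocyte-like cells, each with an interval that overlapped the next class. Outside them, fibroblast-like cells had more Hspa1b in every library, 919, 341 and 502 CPM, and ILC2-like control cells had more of both, 635, 151 and 105 CPM of Hspa1a and 895, 104 and 97.5 of Hspa1b over the 3 libraries.

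Against the control, Hspa1b was lower in the library labelled HHcy in all 11 classes with at least 10 cells in both libraries, with intervals apart in 10. In the 5 main classes its log2 ratio was -1.27 (-1.42 to -1.12) in B-like, -2.55 (-2.91 to -2.20) in T-like, -0.92 (-0.98 to -0.85) in macrophage/monocyte-like, -1.20 (-1.30 to -1.09) in conventional dendritic-like and -1.74 (-2.36 to -1.13) in neutrophil-like cells. In linear terms the control level was 2.41, 5.87, 1.89, 2.29 and 3.35 times that of the library labelled HHcy. Classes of a library share its handling, so 11 of 11 is not 11 independent observations. Hspa1a was lower in 9 of the 11 classes, with intervals apart in 8 and none apart in the other direction. Its ratios were -0.66 (-0.79 to -0.53) in B-like, -1.36 (-1.76 to -0.96) in T-like, -0.25 (-0.30 to -0.20) in macrophage/monocyte-like, -0.52 (-0.61 to -0.43) in conventional dendritic-like and -0.86 (-1.39 to -0.32) in neutrophil-like cells. With the multiplets kept, Hspa1a in B-like cells turned to 0.20. Thinning every cell to 1000 UMIs brought Hspa1b in neutrophil-like cells to -0.064.

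Hspa1b lay nearer to the control in the western diet library than in the library labelled HHcy in all 5 main classes. It was lower in 10 of 11 classes, 8 of them with intervals apart, at log2 ratios of -0.43 (-0.61 to -0.25) in B-like, -2.09 (-2.51 to -1.68) in T-like, -0.48 (-0.52 to -0.43) in macrophage/monocyte-like, -0.86 (-0.94 to -0.78) in conventional dendritic-like and -0.53 (-1.12 to 0.064) in neutrophil-like cells. Hspa1a was lower in 7 and higher in 4 classes. Its ratios were -0.12 (-0.29 to 0.042), -1.52 (-2.05 to -1.01), -0.040 (-0.077 to -0.0031), -0.40 (-0.48 to -0.33) and 0.59 (0.089 to 1.10) in that order, so neutrophil-like cells stood on the other side of 0 from T-like cells. Both neutrophil values turned under other settings: Hspa1b was 0.31 as a mean over cells, 0.37 after thinning and 0.48 with multiplets kept, and Hspa1a was -0.019 after thinning. Both comparisons rest on the same control library. Set directly against the western diet library, the library labelled HHcy had the pair at -0.67 (-0.79 to -0.54) in B-like, -0.17 (-0.51 to 0.17) in T-like and -0.29 (-0.33 to -0.25) in macrophage/monocyte-like cells.

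The T-like values rest on few cells and on a mix of clusters that differed between libraries. Those led by Lef1 gave 29, 69 and 21 cells, by Icos 28, 36 and 33, by Il17a 16, 20 and 21 and by Dntt 6, 8 and 5. The T-like ratios therefore set unlike mixes side by side. Hspa1b gave 224, 96 and 65 UMIs in T-like cells, and the 8 control cells with most Hspa1b held 70.5% of those 224 UMIs, up to 40 in a cell. One control T-like cell held 1776 of that class's 1781 erythroid marker UMIs; without it the pair stood at 747 CPM over 78 cells, against 756 over all 79. Plasma-cell markers summed to 217, 3028 and 919.8 CPM in T-like cells and macrophage/monocyte markers to 1129, 839 and 1129. Their part in the T-like ratios was not tested.

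Dnajb1 (chr8:83608175-83612653), the main DNAJ partner of inducible HSP70, was highest in mast-like cells and varied less among the 5 main classes than the Hspa1 pair. Mast-like cells had 785, 655 and 519.7 CPM, fibroblast-like cells 238, 205 and 308 and macrophage/monocyte-like cells 96.1, 84.2 and 87.6. T-like cells had 117, 81.8 and 92.7 CPM, conventional dendritic-like cells 96.1, 61.5 and 65.2, neutrophil-like cells 59.6, 56.4 and 63.9 and B-like cells 49.9, 47.4 and 51.9. B-like cells were lowest of the 5 main classes in every library, and the highest of the 5 exceeded them only 2.33, 1.78 and 1.79 times. Dnajb1 was lower in the library labelled HHcy in all 11 classes, but with intervals apart in only 2. The ratios were -0.64 (-0.85 to -0.44) in conventional dendritic-like, -0.51 (-1.02 to 0.014) in T-like, -0.19 (-0.30 to -0.082) in macrophage/monocyte-like, -0.079 (-0.53 to 0.39) in neutrophil-like and -0.074 (-0.19 to 0.041) in B-like cells. In the western diet library it was -0.56 (-0.74 to -0.39) in conventional dendritic-like cells, and 6 of 11 classes were lower.

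Hsph1 (chr5:149616843-149636498), the HSP110 nucleotide exchange factor, was 123, 59.1 and 94.6 CPM in T-like, 73.1, 54.5 and 49.8 in conventional dendritic-like, 55.2, 37.3 and 48.8 in macrophage/monocyte-like and 44.3, 35.7 and 40.4 in B-like cells. Neutrophil-like cells gave only 9, 9 and 11 UMIs. Fibroblast-like cells had 273, 114 and 149.9 CPM. Lower values were the rule against the control: 9 of 11 classes in the library labelled HHcy, 6 with intervals apart, and 7 of 11 in the western diet library, 4 with intervals apart. In the library labelled HHcy the ratio was -1.06 (-1.61 to -0.51) in T-like, -0.57 (-0.73 to -0.41) in macrophage/monocyte-like, -0.42 (-0.65 to -0.20) in conventional dendritic-like and -0.31 (-0.44 to -0.19) in B-like cells. The western diet ratio was -0.55 (-0.76 to -0.35) in conventional dendritic-like cells, where it shrank to -0.31 when the sub-clusters were weighted alike.

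Hspb1, the small heat shock protein, was highest in the non-leukocytes that passed the sort. It was 199, 859.6 and 318 CPM in fibroblast-like and 936, 322 and 443 in endothelial-like cells (15, 47 and 46 cells). Macrophage/monocyte-like cells had 9.16, 11.2 and 13.7 CPM, B-like cells 3.36, 2.63 and 4.11 and conventional dendritic-like cells 2.90, 3.19 and 6.28. No UMI was seen in NK-like cells, which by a limit of 3 counts allows up to 8.02, 4.89 and 8.03 CPM. Of the NK-like cells, 16, 30 and 21 came from a cluster whose leading genes include the T marker Cd3d. Its western diet ratio was 0.59 (0.33 to 0.85) in macrophage/monocyte-like and 1.12 (0.32 to 1.96) in conventional dendritic-like cells. Both were above the limit of 0.5 by which members are counted further on, and both turned under another setting: to -0.23 after thinning in the first and to -0.82 when each cell was named by its own markers in the second. Fibroblast markers summed to 19.8, 21.3 and 38.5 CPM in macrophage/monocyte-like cells, smooth muscle markers to 6.16, 9.51 and 13.8 and endothelial markers to 296, 264 and 234. In conventional dendritic-like cells the fibroblast sum was 11.6, 14.8 and 19.6 and the endothelial sum 48.3, 62.7 and 77.3. Their part in the Hspb1 values was not tested.

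Hsp90aa1 (chr12:110691036-110696395), the inducible HSP90, was far from silent: 845, 559.6 and 1096 CPM in T-like, 734, 662 and 731 in conventional dendritic-like, 594, 516 and 649 in macrophage/monocyte-like, 579.5, 526 and 559.7 in B-like and 209, 175 and 207 in neutrophil-like cells. Its constitutive partner Hsp90ab1 (chr17:45567778-45573261) had 1727, 1638 and 1875 CPM in T-like, 1658, 1779 and 1981 in conventional dendritic-like, 1254, 1277 and 1399 in macrophage/monocyte-like, 1505, 1434 and 1449.7 in B-like and 251, 229.7 and 234 in neutrophil-like cells. Hsp90aa1 made up 27.8%, 26.8% and 27.9% of the HSP90 UMIs of B-like cells, 32.9%, 25.5% and 36.9% of those of T-like cells and 45.4%, 43.2% and 47.0% of those of neutrophil-like cells. The split was therefore steadier across libraries in B-like than in T-like cells. Against the control, Hsp90aa1 was -0.60 (-0.78 to -0.41) in T-like and -0.14 (-0.17 to -0.11) in B-like cells of the library labelled HHcy, while Hsp90ab1 was -0.077 (-0.20 to 0.048) and -0.069 (-0.090 to -0.048). The T-like value of Hsp90aa1 shrank to -0.32 with multiplets kept and was past the limit of 0.5 in 4 of 9 other settings.

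Hspa8 (chr9:40801276-40805202), the constitutive HSC70, was above the inducible pair in each of the 5 main classes. It stood at 2239.8, 2446 and 2252 CPM in conventional dendritic-like, 2063, 2133 and 2199 in macrophage/monocyte-like, 1769, 1519 and 1751 in T-like, 1041, 1015 and 1045 in B-like and 448, 301 and 420.1 in neutrophil-like cells. That order was the same in all 3 libraries with no overlap of neighbouring intervals. Its ratios between the library labelled HHcy and the control were -0.037 (-0.061 to -0.012) in B-like, -0.22 (-0.34 to -0.095) in T-like, 0.048 (0.025 to 0.070) in macrophage/monocyte-like, 0.13 (0.092 to 0.16) in conventional dendritic-like and -0.57 (-0.75 to -0.40) in neutrophil-like cells. Only the neutrophil value lay past 0.5, and it turned to 0.16 with multiplets kept. In that class the median over all genes tested was itself -0.23. For the western diet library the ratios were 0.0052 (-0.028 to 0.038), -0.015 (-0.15 to 0.12), 0.092 (0.074 to 0.11), 0.0079 (-0.024 to 0.040) and -0.092 (-0.28 to 0.10), none past 0.5.

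The mitochondrial chaperonin genes followed another order of classes. Hspe1, the lid, had 432, 417 and 412 CPM in T-like, 416, 432 and 471 in conventional dendritic-like, 427, 437 and 399.8 in B-like, 233, 218 and 260.4 in macrophage/monocyte-like and 21.6, 30.5 and 29.0 in neutrophil-like cells. Hspd1, the chamber, had 178, 149.9 and 245 CPM in T-like, 99.0, 117 and 129.6 in conventional dendritic-like, 136, 123 and 114 in B-like, 96.8, 80.0 and 98.1 in macrophage/monocyte-like and 11.3, 9.47 and 17.0 in neutrophil-like cells. B-like cells, lowest or next to lowest for inducible HSP70, thus had more Hspe1 than macrophage/monocyte-like cells in every library. Against the control, Hspe1 was 0.034 (-0.0043 to 0.072) in B-like and -0.094 (-0.16 to -0.025) in macrophage/monocyte-like cells of the library labelled HHcy, and -0.095 (-0.15 to -0.042) and 0.16 (0.11 to 0.21) in those of the western diet library. Hspd1 was -0.15 (-0.22 to -0.081) and -0.28 (-0.39 to -0.16), then -0.26 (-0.35 to -0.16) and 0.019 (-0.065 to 0.10). None of these 8 ratios reached 0.5. Over the 19 combinations of class and library with at least 50 cells, the log levels of Hspe1 and Hspd1 had a Pearson r of 0.96, Hspe1 and Hsp90ab1 0.98, and Hspa1a and Hspa1b 0.93. Dnajb1 and Hspe1 had 0.20. Points of one library share depth and handling, so these are descriptions.

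Taken as medians over the members tested, the inducible members lay below the constitutive ones in their ratios of the library labelled HHcy to the control. Their median log2 ratio was -0.33, -1.06, -0.23, -0.47 and -0.56 in B-like, T-like, macrophage/monocyte-like, conventional dendritic-like and neutrophil-like cells, that of the constitutive pair -0.053, -0.15, 0.037, 0.11 and -0.35, and that of the mitochondrial pair -0.059, -0.15, -0.18, 0.15 and 0.12. Over all genes tested, those with at least 20 UMIs in both libraries together, the median was -0.041, -0.087, -0.042, 0.067 and -0.23. In the western diet library the inducible median was -0.086, -0.38, -0.087, -0.48 and 0.020, the constitutive -0.024, 0.052, 0.13, 0.13 and -0.10, the mitochondrial -0.18, 0.19, 0.089, 0.28 and 0.51, and that of all genes 0.0012, 0.068, -0.013, -0.0039 and -0.051. The inducible median was thus the lowest of the 3 roles in all 5 classes of the library labelled HHcy and in 3 of 5 classes of the western diet library, B-like and neutrophil-like cells being the exceptions. With sub-clusters weighted alike in both libraries, the inducible median of the library labelled HHcy was -0.14 in B-like cells. A median over 2 genes is their mean. The 6 inducible members include the Hspa1 pair, whose shared sequence makes them less than 6 separate readings. For the library labelled HHcy, 5 of the 6 were tested in T-like and 4 in neutrophil-like cells. Single members could go against the medians: Dnajb1 lay above Hspa8 in neutrophil-like cells.

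Members past an absolute log2 ratio of 0.5 were counted against all genes past the same limit. For the library labelled HHcy these were 2 of 10 members in B-like cells, both lower (background 19% of genes in either direction), 5 of 9 in T-like cells, all lower (35.4%), 2 of 10 in macrophage/monocyte-like cells, both lower (13.6%), 3 of 10 in conventional dendritic-like cells, all lower (19%), and 3 of 8 in neutrophil-like cells, all lower (44.2%). Genes lower past the limit were 11.9%, 21.8%, 7.15%, 7.46% and 32.6% of those tested. The counts of B-like, macrophage/monocyte-like and neutrophil-like cells lie within 1 gene of the background in either direction. For the western diet library the counts were 0 of 10 (12%), 2 of 9, both lower (33.9%), 1 of 10, higher (14.9%), 4 of 10, 3 of them lower (18.8%), and 3 of 9, 2 of them higher (32.5%), in that order of classes. Genes lower past the limit were 6.17%, 14.5%, 6.97%, 9.61% and 19.8%, and genes higher 5.83%, 19.4%, 7.9%, 9.17% and 12.7%. Hspa1b was the member past the limit most often, in all 5 classes of the library labelled HHcy. It stayed there under each other filter, scaling and naming tried in B-like, T-like, macrophage/monocyte-like and conventional dendritic-like cells. Under a limit of 1 the member counts for the library labelled HHcy were 1, 3, 0, 1 and 1.

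**Figure D2:**
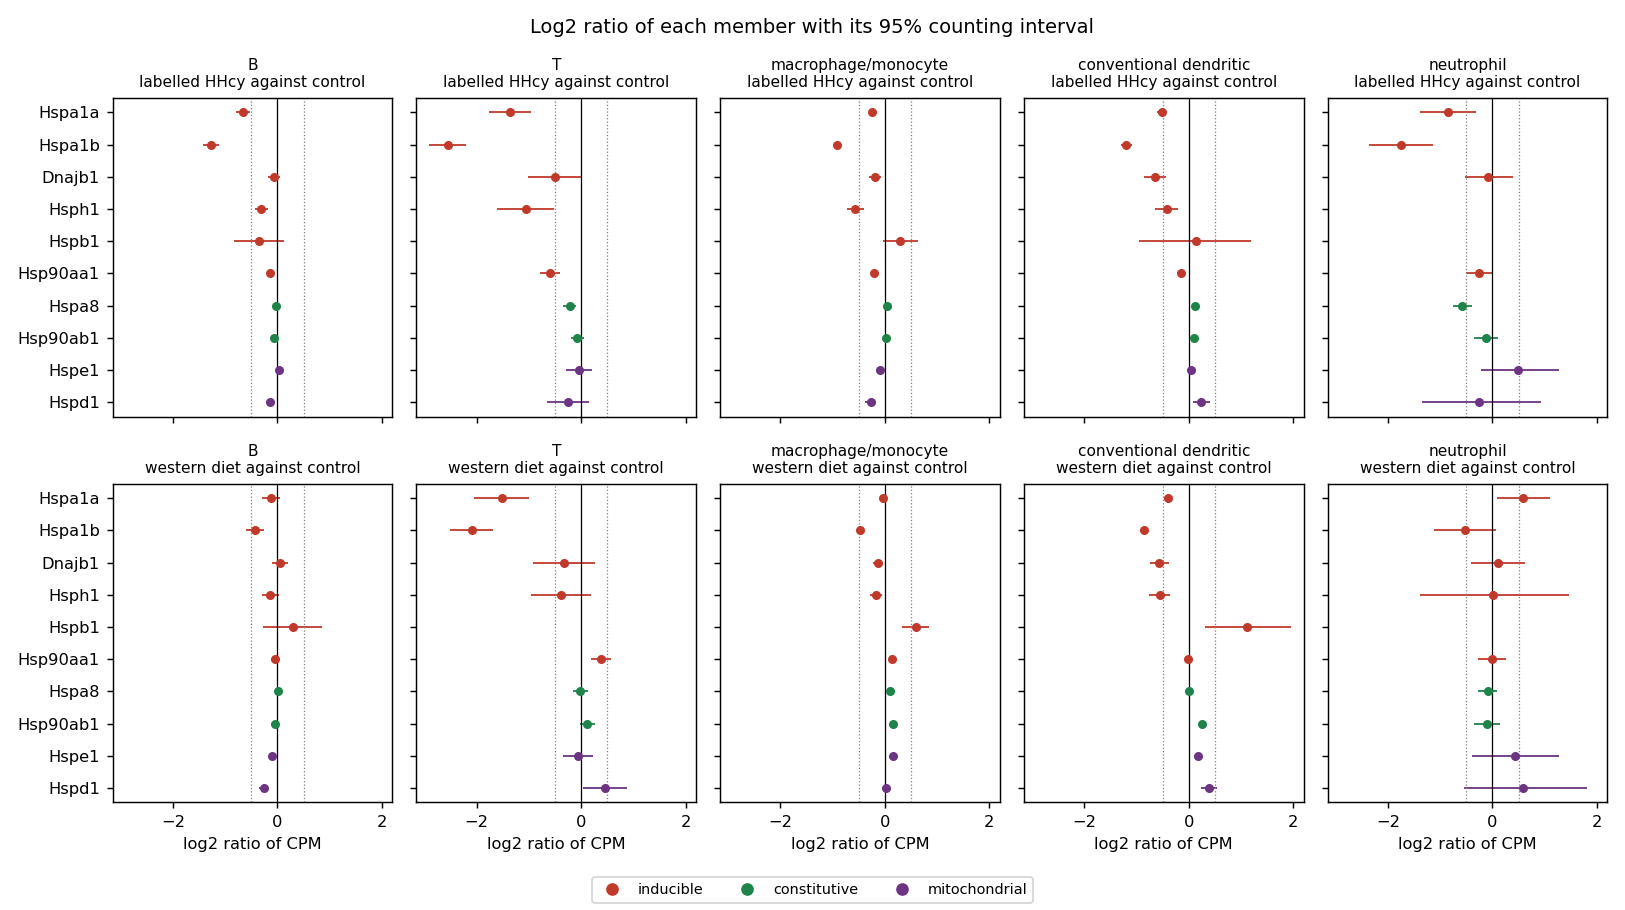
Log2 ratios of the members against the control library in 5 cell classes, for the library labelled HHcy and the western diet library, with exact 95% counting intervals, coloured by role; dotted lines mark 0.5 in either direction. Hspa1b lies below the lower line in all 5 classes of the library labelled HHcy, while Hspa8 and Hsp90ab1 lie between the lines there except Hspa8 in neutrophil-like cells.

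The balance of inducible to constitutive HSP70 can be read within a class without any scaling between libraries, since both genes come from the same cells. Hspa1a and Hspa1b made up 30.7%, 23.2% and 26.3% of the Hspa1 and Hspa8 UMIs of macrophage/monocyte-like cells and 30.5%, 18.5% and 22.2% of those of conventional dendritic-like cells. The share was 29.95%, 10.7% and 10.5% in T-like, 19.9%, 13.5% and 22.4% in neutrophil-like and 8.05%, 4.48% and 6.75% in B-like cells. The share was thus lowest in the library labelled HHcy in 4 of the 5, T-like cells being the exception. ILC2-like cells stood at 48.2%, 15.5% and 11.3%, mast-like cells at 41.0%, 6.92% and 25.4% and fibroblast-like cells at 50.4%, 30.7% and 41.2%, each highest in the control library.

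Within the inducible pair itself the split moved. Hspa1b made up 50.5% (48.3 to 52.8), 40.1% (37.7 to 42.7) and 45.2% (41.8 to 48.7) of the pair's UMIs in B-like cells and 44.2% (43.4 to 44.9), 33.3% (32.2 to 34.3) and 36.8% (36.2 to 37.5) in macrophage/monocyte-like cells. It made up 50.3%, 38.8% and 42.5% in conventional dendritic-like, 67.7%, 47.8% and 58.6% in T-like, 50.9%, 36.0% and 32.4% in neutrophil-like and 81.9%, 54.6% and 50.4% in fibroblast-like cells. Leaving out the mast-like cells of the library labelled HHcy, which had fewer than 20 UMIs of the pair, the share was lower there than in the control in 10 of 10 classes, 8 with intervals apart, and lower in the western diet library in 10 of 11, 4 with intervals apart. Endothelial-like cells of the western diet library, at 45.6%, 36.3% and 49.0% for the 3 libraries, were the exception. The 2 upstream sequences printed above differ at 3 of 250 bases.

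**Figure D3:**
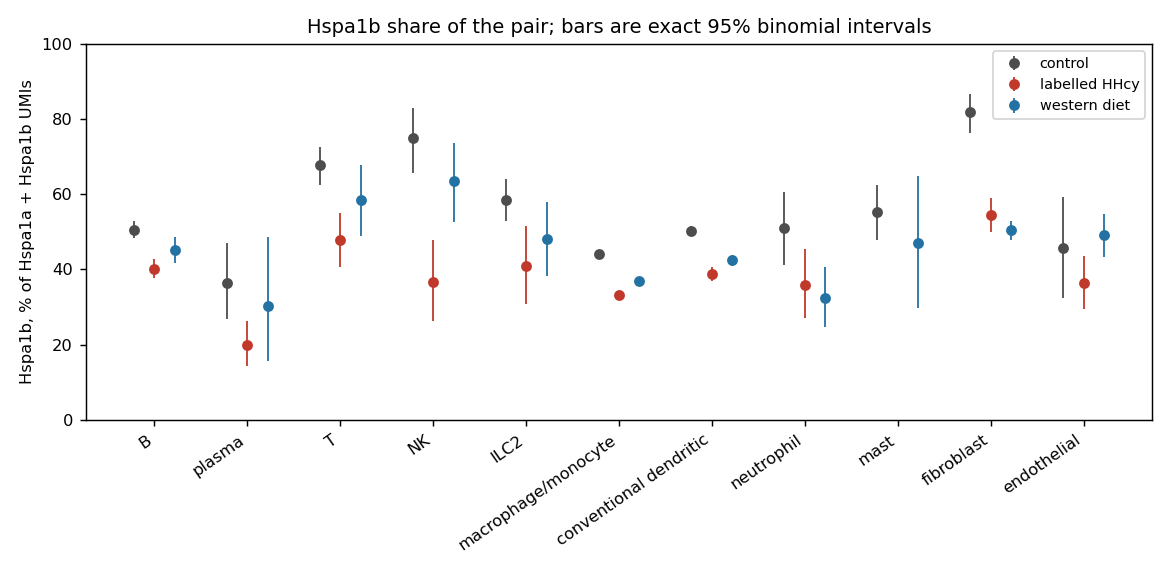
Hspa1b as a percentage of Hspa1a and Hspa1b UMIs in 11 cell classes, 1 point per library with its exact binomial 95% interval; mast-like cells of the library labelled HHcy are not shown. In B-like cells the control stands at 50.5% and the library labelled HHcy at 40.1%, and in macrophage/monocyte-like cells at 44.2% and 33.3%.

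Macrophage/monocyte-like cells were not uniform. Of their 10 sub-clusters, the resident-like one (led by Cd209f, Lyve1 and Cd163, 281, 264 and 336 cells) had the pair at 2952, 2027 and 1873 CPM, and the foamy-like one (led by Gpnmb, 110, 32 and 271 cells) at 141, 109 and 329 CPM. The resident-like level was 20.9 (18.3 to 24.0), 18.5 (14.02 to 25.005) and 5.69 (5.37 to 6.03) times the foamy-like level. Hspa8 differed by 1.14 (1.09 to 1.20), 0.778 (0.731 to 0.829) and 0.977 (0.947 to 1.01) times, so it did not share the gap of the pair. Hspe1 went the other way at 0.552 (0.475 to 0.639), 0.470 (0.385 to 0.575) and 0.50004 (0.454 to 0.551) times. Dnajb1 stood at 107, 121 and 121 CPM in resident-like and 45.4, 63.5 and 52.6 in foamy-like cells. Hspb1 stood at 32.0, 19.9 and 31.8 against 3.78, 0 and 2.61, the latter on 6, 0 and 12 UMIs. Hsp90aa1 and Hsph1 were higher in resident-like than foamy-like cells of the control library but lower in those of the western diet library. Classical monocyte-like cells had the pair at 582, 105 and 294 CPM, non-classical monocyte-like cells at 513, 212 and 444, and the cells led by Ccl12 and Ccl7 at 1811, 1599 and 1425. Classical monocytes are the short-lived Ly6c2 cells that come in from the blood, and among them the control was highest and the library labelled HHcy lowest. Summed immediate early genes, mostly transcription factors that dissociation also switches on, stood at 35833, 32719.6 and 29844 CPM in resident-like, 21267, 15459 and 20044 in classical monocyte-like and 14445, 13990.2 and 14273 in foamy-like cells. They did not follow the pair everywhere: the cells led by Prg4, with the pair at 229.7, 165 and 290.5 CPM, had 31295, 23311 and 25866, and those led by Hr and Cd226, with the pair at 1275, 1269 and 911, had 12656, 12083 and 12857. The median mitochondrial percentage was 4.84, 4.89 and 4.24 in resident-like and 2.13, 2.94 and 2.53 in foamy-like cells. The part of either in the heat shock levels was not tested.

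Hspa1b was lower in the library labelled HHcy than in the control in 7 of 7 macrophage/monocyte sub-clusters with at least 50 cells in both libraries, with log2 ratios from -2.94 to -0.59, while Hspa8 ran from -0.13 to 0.12. Classical monocyte-like cells had the pair at -2.48 (-2.66 to -2.29), and resident-like cells at -0.54 (-0.60 to -0.48). In the western diet library Hspa1b was lower in 7 of 8 sub-clusters, the foamy-like cells being the exception at 1.23 (0.90 to 1.58). Hspa1a was higher in 2 of 8, at 1.22 (0.96 to 1.48) in foamy-like cells and 0.61 (0.37 to 0.85) in the cells led by Prg4. Dnajb1 peaked in the cells led by Prg4 and Alox15 (116, 82 and 120 cells), at 303, 184 and 234 CPM, 3.98 (3.57 to 4.42), 2.61 (2.27 to 2.99) and 3.06 (2.77 to 3.37) times the rest. The pair was only 229.7, 165 and 290.5 CPM there, so Dnajb1 and inducible HSP70 did not peak in the same macrophages. Hspb1 stood at 28.1, 33.3 and 59.2 CPM in the cells led by Prg4, against 32.0, 19.9 and 31.8 in resident-like cells.

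**Figure D4:**
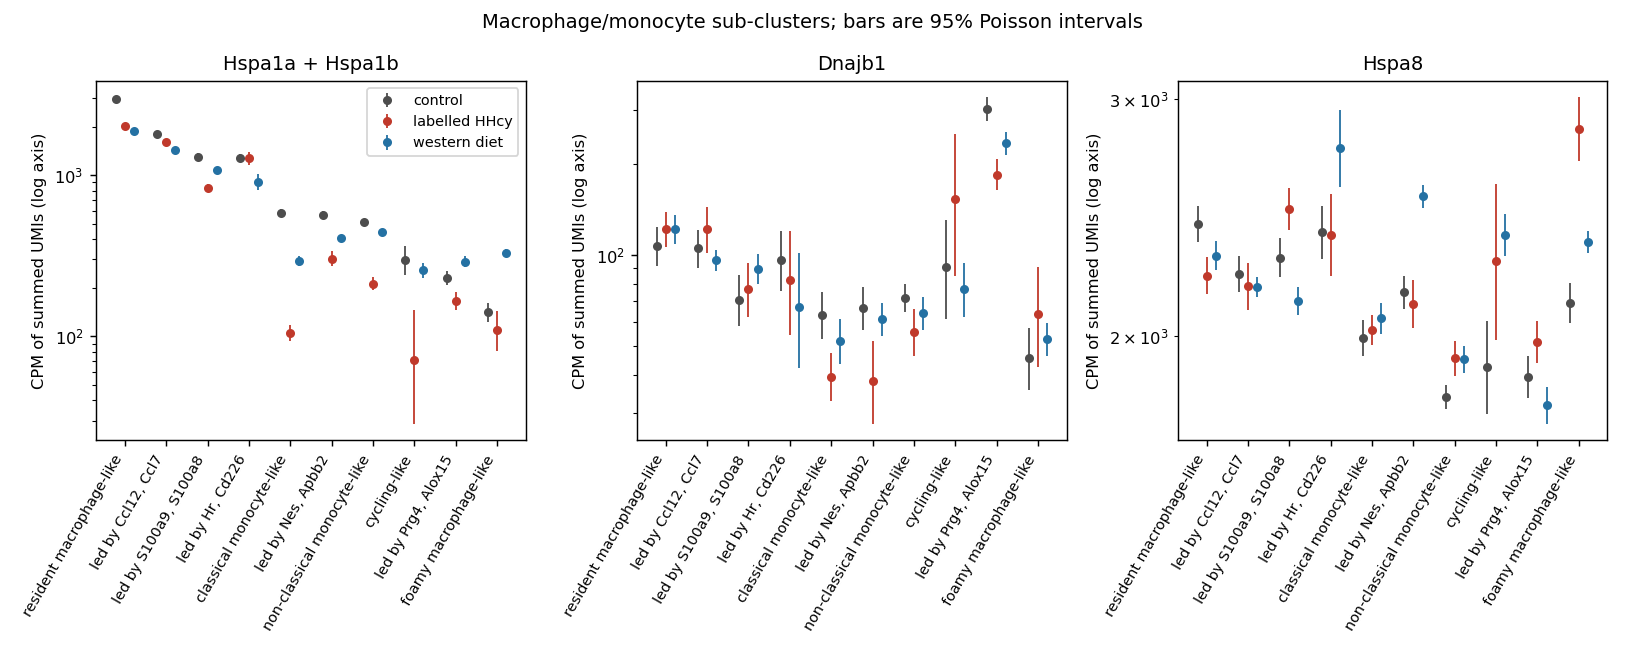
CPM (log axes) of Hspa1a and Hspa1b together, Dnajb1 and Hspa8 in 10 sub-clusters of macrophage/monocyte-like cells, 1 point per library with 95% Poisson intervals. The pair reaches 2952 CPM in resident-like control cells and stands at 105 in classical monocyte-like cells of the library labelled HHcy, and Dnajb1 is highest in the sub-cluster led by Prg4.

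Sub-clusters of B-like cells differed too. Of their sub-clusters, those led by Mettl1, Pclaf and Fyb were each set against the 2141, 3517 and 1210 B-like cells outside all of them, called the remaining B-like cells. The sub-cluster led by Mettl1, Srm and C1qbp, genes of ribosome building and growth (37, 130 and 15 cells), had Hspd1 at 4.72 (4.01 to 5.53), 4.89 (4.46 to 5.36) and 4.11 (3.09 to 5.39) times the remaining B-like cells. Hspe1 was 2.85 (2.55 to 3.17), 2.84 (2.68 to 3.003) and 2.82 (2.37 to 3.33) times and Hsp90ab1 2.24 (2.10 to 2.38), 2.80 (2.71 to 2.89) and 2.19 (1.98 to 2.42) times as high. Of the inducible members, Hsp90aa1 was 2.09 (1.87 to 2.32), 2.27 (2.14 to 2.40) and 2.12 (1.79 to 2.51) times, Hsph1 1.57 (0.938 to 2.47), 2.40 (1.92 to 2.98) and 1.61 (0.688 to 3.20) times and the Hspa1 pair 0.624 (0.348 to 1.03), 0.681 (0.442 to 1.01) and 1.22 (0.553 to 2.32) times. The sub-cluster led by Pclaf and Mki67, genes of dividing cells (76, 74 and 21 cells) had Hspd1 at 3.72 (3.40 to 4.07), 3.58 (3.28 to 3.90) and 2.65 (2.17 to 3.20) times, Hsp90aa1 at 3.05 (2.92 to 3.19), 2.78 (2.66 to 2.90) and 2.39 (2.18 to 2.61) times and Hsph1 at 3.52 (2.998 to 4.11), 2.78 (2.33 to 3.29) and 2.41 (1.69 to 3.34) times the remaining B-like cells, and the pair at 1.25 (1.05 to 1.48), 2.79 (2.34 to 3.30) and 0.972 (0.618 to 1.46) times. Dnajb1 was 1.40 (1.14 to 1.71), 1.26 (1.03 to 1.53) and 1.94 (1.37 to 2.67) times as high there. So Hsp90aa1, Hsph1 and Dnajb1, all listed here as inducible, were above the remaining cells there in all 3 libraries with intervals above 1. The Hspa1 pair was so in the control library and the library labelled HHcy. The sub-clusters were chosen for description after their values were seen.

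The pair had its highest B-like level in the sub-cluster led by Fyb, Retnla and Fcer1g (96, 153 and 74 cells), at 6.16 (5.52 to 6.87), 10.5 (9.42 to 11.8) and 6.78 (5.80 to 7.91) times the remaining B-like cells, with Hspa8 at 1.34 (1.27 to 1.42), 1.23 (1.17 to 1.29) and 1.13 (1.05 to 1.22) times. All 16 macrophage/monocyte markers were detected both in it and in the remaining B-like cells. They summed to 2446, 2261 and 2266 CPM in it against 308, 331 and 469 in the remaining B-like cells. B markers summed to 4794, 5844 and 5346 against 6204, 7078 and 6946. The part of the macrophage/monocyte markers in its heat shock level was not tested. The sub-cluster led by Gm26917 (31, 39 and 20 cells) had the pair at 280.5, 103 and 211 CPM, on only 9, 5 and 4 UMIs. Without the sub-cluster led by Fyb, 1 member in place of 0 was past the limit in B-like cells of the western diet library. Hspa1b was lower in the library labelled HHcy in 8 of 8 B sub-clusters, with intervals below 0 in 7 and ratios from -1.89 to -0.70, while Hspa8 ran from -0.14 to 0.33. The 2 naive follicular-like sub-clusters are among them. In the one led by Satb1 the pair stood at 63.9, 27.7 and 53.6 CPM, and in the one led by Pxdc1 at 86.8, 26.4 and 111.5. In the western diet library Hspa1b was lower than in the control in 4 of 7 B sub-clusters, with intervals below 0 in 3.

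**Figure D5:**
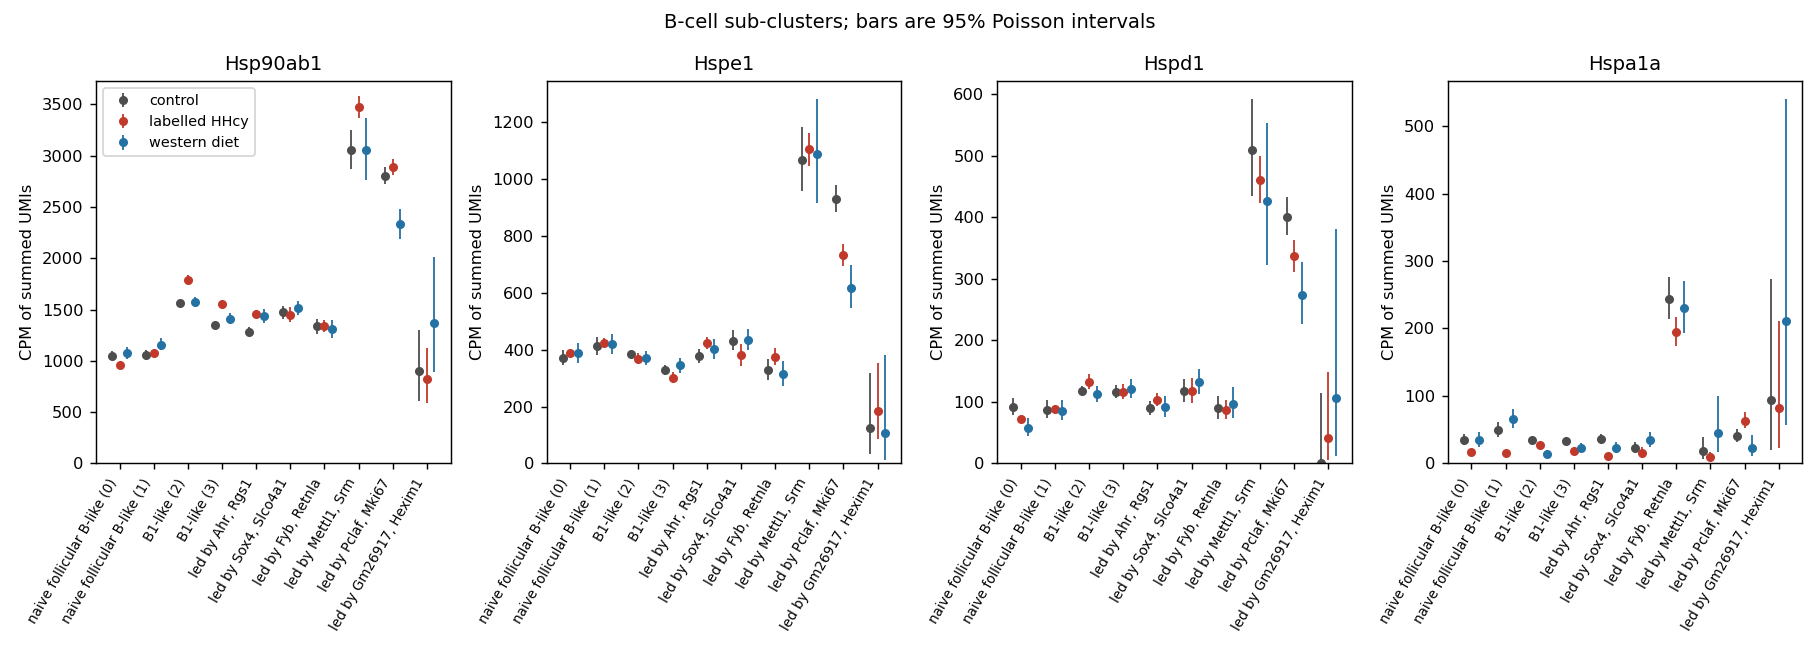
CPM (linear axes from 0) of Hsp90ab1, Hspe1, Hspd1 and Hspa1a in 10 sub-clusters of B-like cells, 1 point per library with 95% Poisson intervals. Hspe1 and Hspd1 are high in the sub-clusters led by Mettl1 and Pclaf, and Hspa1a in that led by Fyb.

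Inducible HSP70 was concentrated in few cells. After thinning each cell to 1000 UMIs, which left out 22, 7 and 10 shallower macrophage/monocyte-like cells, 25.04%, 21.3% and 24.5% of them had an Hspa1a UMI, against 54.0%, 50.6% and 59.5% before thinning. In B-like cells, with 21, 32 and 17 left out, the thinned share was 3.39%, 2.11% and 3.53% and the unthinned 17.9%, 11.8% and 18.0%. The median depth of the 2 classes was 7577, 8641 and 9437, and 7561, 6477 and 6692 UMIs a cell. Free RNA can give a UMI to a cell that does not express a gene, and no class is known to lack Hspa1a, so that background was not measured. The 10% of macrophage/monocyte-like cells with most Hspa1a held 68.5%, 73.0% and 64.1% of its UMIs, with up to 146, 150 and 152 in a cell. For Hspa8 the 10% with most of it held 32.5%, 30.3% and 32.2%, a much more even spread. The variance over cells divided by the mean (Fano factor) of thinned counts was 6.15, 6.23 and 5.42 for Hspa1a, 6.93, 5.11 and 4.88 for Hspa1b and 1.52, 1.44 and 1.60 for Hspa8, beside a median over genes of 1.07, 1.06 and 1.06.

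How far cells rich in one of the pair were rich in the other varied by class. Pearson's r of the 2 over thinned cells was 0.65, 0.55 and 0.57 in macrophage/monocyte-like and 0.62, 0.55 and 0.49 in conventional dendritic-like cells. It was 0.43, 0.24 and 0.65 in T-like, 0.38, 0.26 and 0.14 in B-like and 0.47, -0.031 and 0.16 in neutrophil-like cells. In macrophage/monocyte-like cells the pair and Hspa8 had 0.23, 0.092 and 0.14, and the pair and the summed immediate early genes 0.29, 0.33 and 0.30. There the pair and the mitochondrial percentage of the cell had 0.16, 0.19 and 0.087, and the pair and the log of the cell's UMIs -0.20, -0.19 and -0.17. These r are descriptions over cells of 1 library, with no test.

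The wider chaperone network and the immediate early genes were read from lists of textbook members. Immediate early genes were lower past the limit in 6 of 13 in B-like cells of the library labelled HHcy (median log2 ratio -0.36), 10 of 13 in T-like cells (-1.21), 1 of 13 in macrophage/monocyte-like cells (-0.067), 0 of 13 in conventional dendritic-like cells (-0.15) and 6 of 13 in neutrophil-like cells (-0.38), with none higher. Over all genes, 11.9%, 21.8%, 7.15%, 7.46% and 32.6% were lower, and the neutrophil median was -0.23. Atf3 was -1.46 (-1.50 to -1.42) and Fosb -0.85 (-0.88 to -0.81) in B-like cells, and Egr1 was -1.54 (-1.92 to -1.17) in T-like cells. In the western diet library 9 of 13 were lower in T-like cells (median -0.55) and 0 of 13 in B-like cells, beside 14.5% and 6.17% of all genes. Their sums were 10263, 7353 and 10038 CPM in B-like, 11658, 6666 and 8245 in T-like and 22986, 20663 and 20913 in macrophage/monocyte-like cells. Inducible HSP70 and immediate early genes were thus both low in B-like and T-like cells of the library labelled HHcy. In macrophage/monocyte-like and conventional dendritic-like cells Hspa1b was low while the immediate early list had medians of -0.067 and -0.15, beside -0.042 and 0.067 over all genes.

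The other chaperones are given by list. None of the 8 subunits of the cytosolic chaperonin TRiC, which folds actin and tubulin, was past 0.5 in B-like, macrophage/monocyte-like or conventional dendritic-like cells of either library, where 12% to 19% of all genes were, and their median in conventional dendritic-like cells was 0.37 and 0.29. Of 21 co-chaperones of HSP70 and HSP90, 2 were lower in B-like cells of the library labelled HHcy and 0 in macrophage/monocyte-like cells, beside 11.9% and 7.15% of all genes. Fkbp5, an HSP90 co-chaperone of steroid receptors, was -0.55 (-0.72 to -0.37) in the former. The 14 endoplasmic reticulum chaperones had 9 lower in neutrophil-like cells of the library labelled HHcy (median -0.55), where 32.6% of all genes were lower. Of the 16 heat shock factors and genes induced with them, 14 could be tested in B-like cells of the library labelled HHcy, of which 2 were higher and 2 lower, beside 19% of all genes in either direction. Ubb, a stress-inducible polyubiquitin gene, went opposite to inducible HSP70: it was 0.63 (0.61 to 0.66) in B-like, 0.31 (0.17 to 0.46) in T-like and 0.54 (0.51 to 0.56) in macrophage/monocyte-like cells of the library labelled HHcy, and 0.49 (0.46 to 0.53), 0.19 (0.029 to 0.36) and 0.53 (0.50 to 0.55) in those of the western diet library.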

How the data were processed

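The authors deposited a filtered matrix of raw UMI counts per gene and barcode for each library, made with the 10x 3′ v3 kit, per the labels' protocols. Cell Ranger 4.0.0 is named per the file headers, while the submitters' processing notes name Cell Ranger 2.2.0 and the build mm10. Barcodes with at least 200 genes and at most 10% mitochondrial UMIs passed. Multiplets were barcodes with markers of more than 1 of 5 lineages, by limits set after seeing the data; the naming limits were too. The cells of the 3 libraries were clustered jointly (2000 variable genes without heat shock, chaperone and immediate early genes, 30 principal components, 20 neighbours, Leiden resolution 1, sub-clusters 0.5) without batch correction. Class sums of counts gave CPM with exact Poisson 95% intervals and log2 ratios with exact conditional binomial intervals. UMI totals of the 5 main classes ran from 437651 to 31973795, which sets the width of those intervals. A gene was called at an absolute log2 ratio of at least 0.5 among genes with at least 20 UMIs. All members are named, and of each other list up to 3 genes per comparison with the largest ratio and at least 100 UMIs in both libraries. The members and lists were chosen with earlier results of these data known. The scripts were tested on simulated data. Alternatives were other mitochondrial limits, multiplets kept, other scalings, thinning, per-cell means, an equal sub-cluster mix, naming by each cell's own markers and another fold limit. Tools were Python 3.11.15 with numpy 2.4.6, scipy 1.17.1, pandas 2.3.3, scikit-learn 1.9.0, igraph 0.11.9, leidenalg 0.10.2 and matplotlib 3.10.9.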

Additional observations from a re-analysis of the deposited data

Results flagged for a closer look

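Hspa1a differed in direction between 2 classes of the western diet library. Its log2 ratio to the control was -1.52 in T-like cells and 0.59 in neutrophil-like cells, with counting intervals on opposite sides of 0. After thinning to 1000 UMIs the neutrophil value was -0.019, below 0 like that of T-like cells, and it was past the limit of 0.5 in 4 of 9 other settings. With 1 library per group the difference was not tested.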

How the results depend on the processing

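All values are against the control, as log2 ratios or as numbers of members past the limit. The main counts for the library labelled HHcy were 2, 5, 2, 3 and 3 in B-like, T-like, macrophage/monocyte-like, conventional dendritic-like and neutrophil-like cells, and 0, 2, 1, 4 and 3 for the western diet library. Below, H and W stand for these libraries. Hspa1b in H kept its direction in all 5 classes under every setting run. With at most 20% mitochondrial UMIs the count was 2 in macrophage/monocyte-like W and 5 and 1 in neutrophil-like H and W. With at most 5% it was 1 in B-like, 4 in T-like, 2 in conventional dendritic-like and 1 in neutrophil-like W, the constitutive median was -0.061 in B-like W and the inducible median 0.048 in macrophage/monocyte-like W. With cells named one by one from their markers the count was 1 in B-like W, 3 in T-like H, 2 in macrophage/monocyte-like W and 5 in neutrophil-like H, the constitutive median was 0.18 and 0.16 in conventional dendritic-like and neutrophil-like W, and Hspb1 was -0.82 in conventional dendritic-like W. A fold limit of 1 gave 1, 3, 0, 1 and 1 for H, and 0, 1 and 0 in macrophage/monocyte-like, conventional dendritic-like and neutrophil-like W. Keeping genes with 1 UMI gave 5 in neutrophil-like H.

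As means of per-cell CPM the constitutive median was -0.087 and 0.029 in B-like H and W, -0.30 in T-like W and 0.095 in macrophage/monocyte-like W, the inducible median was 0.053 in B-like and -0.62 in conventional dendritic-like W, the counts were 1, 0 and 1 in B-like, macrophage/monocyte-like and neutrophil-like W, and Hspa1b was 0.31 in neutrophil-like W. With multiplets kept the count was 1 in B-like H and 1 in conventional dendritic-like W, the constitutive median was 0.043 in T-like H and 0.27 and 0.35 in neutrophil-like H and W, Hspa1a was 0.20 in B-like H, Hspa8 0.16 in neutrophil-like H and Hspa1b 0.48 in neutrophil-like W. With an equal sub-cluster mix the inducible median was -0.14 in B-like H, -0.34 and -0.15 in macrophage/monocyte-like H and W and -0.29 in conventional dendritic-like W, the constitutive median was 0.087 and 0.046 in B-like H and W, -0.16 in T-like W and 0.078 in macrophage/monocyte-like H, and the counts were 1 in B-like W, 1 in macrophage/monocyte-like H and 2 in conventional dendritic-like W. Scaling by the median ratio, which brought the all-gene median of neutrophil-like H from -0.23 to -0.0092, gave a constitutive median of -0.00838, -0.014, 0.078, 0.036 and -0.13 in B-like, T-like, macrophage/monocyte-like, conventional dendritic-like and neutrophil-like H and 0.15 in macrophage/monocyte-like W, and a count of 3 in T-like H. Leaving mitochondrial, ribosomal, immunoglobulin and heat shock UMIs out of the scaling also gave 3 there. Thinned to 1000 UMIs, the constitutive median was -0.11 and -0.30 in B-like and T-like H and -0.32, 0.059 and 0.22 in T-like, conventional dendritic-like and neutrophil-like W, the inducible median was 0.063, -0.22 and -0.73 in B-like, macrophage/monocyte-like and conventional dendritic-like W, the counts were 2 in macrophage/monocyte-like W and 1 and 0 in neutrophil-like H and W, and Hspb1 was -0.23 in macrophage/monocyte-like W, Hspa1a -0.019 and Hspa1b 0.37 in neutrophil-like W. Without the B sub-cluster led by myeloid genes, a setting chosen after seeing the data, the count was 1 in B-like W. The cause of these shifts was not tested. No paired analysis was possible because each group is 1 library, and none could be left out. T-like and neutrophil-like cells, with the fewest UMIs, have the widest intervals.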

Other observations

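Barcodes set aside for over 10% mitochondrial UMIs (1365, 1398 and 1688) had the Hspa1 pair at 1846, 981 and 1082 per 1000000 non-mitochondrial UMIs, against 583, 253 and 610.4 in the cells used, with Hspa8 at 1892, 1602 and 1842 against 1672, 1440.0 and 1959.5. Their median depth was 1902, 2016 and 2300.5 UMIs.

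Among 8216 genes, those whose log levels followed the Hspa1 pair most closely over the 19 combinations of class and library were Il3ra (Pearson r 0.938), Sestd1 (0.932), Gabarapl1 (0.930), Ext1 (0.925) and Pdlim4 (0.914). For Hspa8 they were Aamp (0.964), Cox6b1 (0.962), Hsd17b12 (0.954), Rab10 (0.953) and Piezo1 (0.952). Points of one library share depth and handling.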
